A study of Danio rerio with 4 samples.

Results

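The genes of heme synthesis in zebrafish embryos were chosen by their names, as the rows of the deposited files that carry 9 fixed symbols, and all 9 were found among 14417 genes. Results are given for 7 of them: alas1, alas2, alad, urod, cpox and fech, which encode enzymes of the pathway, and tmem14c, which encodes a transporter of a heme precursor. Every count, sum and median of members below is over these 7. All 9 passed a floor of 1 FPKM on the mean over the libraries, as did 11971 genes in all. Levels are in FPKM, which corrects fragment numbers for transcript length and library size and so lets genes be compared within a library.

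Heme, the iron-containing group of hemoglobin, is made in a relay between mitochondria and cytosol. ALAS joins glycine and succinyl-CoA in the mitochondrion, cytosolic enzymes, among them ALAD, UROS and UROD, build the porphyrin ring, and CPOX, PPOX and FECH finish it and insert iron in the mitochondrion. Vertebrates have a housekeeping ALAS gene, alas1, and a red cell form, alas2. Zebrafish mutants in alas2 and urod, known as sauternes and yquem, have defects in red cells, and alas2 mutants make too little hemoglobin.

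The embryos came from the gata1:GFP line, in which the promoter of an erythroid transcription factor gene drives green fluorescent protein, and cells were sorted as Gata1+ by FACS. All embryos carried the reporter and had been injected at the 1-cell stage, either with a standard morpholino oligonucleotide (MO), labelled control, or with a foxo3b MO against a FOXO transcription factor gene. Cells of both injections, called control and morphants below, were taken at 24 and at 48 hours post fertilization (hpf), which makes 4 groups. Each group had 1 library, so no value has a replicate error, no test was run, and every difference below describes these libraries. The labels give neither the number of embryos pooled nor the MO's dose or target site.

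The targeted gene foxo3b (chromosome 20, 32325663 to 32371617) had 6.40 FPKM in the control library and 46.5 FPKM in the morphant library at 24 hpf, and 38.1 and 50.3 FPKM in those of 48 hpf. Its mRNA was thus higher, not lower, in morphants at both stages. A morpholino can block translation or splicing without lowering mRNA, and the labels do not say which kind was used, so these levels do not check the knockdown, and every direction below is that of the library labelled foxo3b MO against the library labelled control. Its paralog foxo3a stood between 8.90 and 12.1 FPKM.

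Total FPKM over all genes ranged from 1505447 to 2402299 per library. The files hold no counts. Ratios of low values between libraries did not fix relative depth. Against control at 24 hpf the most frequent ratios, each held by a minority of the genes compared, were 0.541 (86 of 652 genes) and 1.09 (70 genes) for morphants at 24 hpf, 0.711 (51 of 391 genes) and 1.42 (36 genes) for control at 48 hpf, and 0.247 (35 of 261 genes) and 0.988 (28 genes) for morphants at 48 hpf. The 8 red cell markers outside globins and heme synthesis were above 0 in every library, with sums between 70.9 and 254 FPKM, and 5 embryonic globin genes summed to between 3644 and 25717 FPKM. Markers of other tissues were abundant as well, with sums of 9988 to 11756 FPKM for epidermis, 4758 to 27437 FPKM for muscle, 46969 to 200445 FPKM for liver and yolk, 1999.5 to 8380 FPKM for hatching gland and 178 to 370 FPKM for neural markers. Most of each liver and yolk sum came from 1 gene, fabp1b.1, at 39376 to 187400 FPKM. Myeloid markers summed to between 54.2 and 467 FPKM, endothelial markers to between 45.9 and 67.5 FPKM and thrombocyte markers to between 1.37 and 11.0 FPKM. Of all these markers that the files hold, itga2b (thrombocyte) and ttr (liver) were listed at 0, both in morphants at 48 hpf. The listed markers were found for 4 of 4 in epidermis, 5 of 6 in muscle, 7 of 9 in liver and yolk, 3 of 3 in hatching gland, 4 of 5 in neural, 8 of 8 in myeloid, 5 of 6 in endothelial and 3 of 4 in thrombocyte. Housekeeping members of the pathway are expressed in many of these cells too, and how much of a member's level came from cells other than red cells was not tested. In a bulk sort, fewer red cells and less RNA per red cell cannot be told apart.

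The most abundant member in 3 of the 4 libraries was tmem14c, and the least abundant in all 4 was fech. In control at 24 hpf tmem14c stood 31.0 times above fech, and in morphants at 24 hpf urod took the top place at 96.5 FPKM with tmem14c next at 93.5 FPKM. The 7 members summed to 658 FPKM in control and 356 FPKM in morphants at 24 hpf, and to 319.9 FPKM and 262 FPKM at 48 hpf. Much of the difference at 24 hpf came from tmem14c, which made up 48.8% of the sum in control and 26.3% in morphants, against 49.8% and 43.5% at 48 hpf. Without tmem14c the sums were 337 and 262 FPKM at 24 hpf, and 161 and 148 FPKM at 48 hpf. Of total FPKM the 7 members made up 0.0288% in control and 0.0226% in morphants at 24 hpf, and 0.0133% and 0.0174% at 48 hpf. As a share of the total, the morphant value was thus the higher one at 48 hpf. With 1 library a group, neighbours in the order of abundance cannot be separated by any measured spread.

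**Figure D1:**
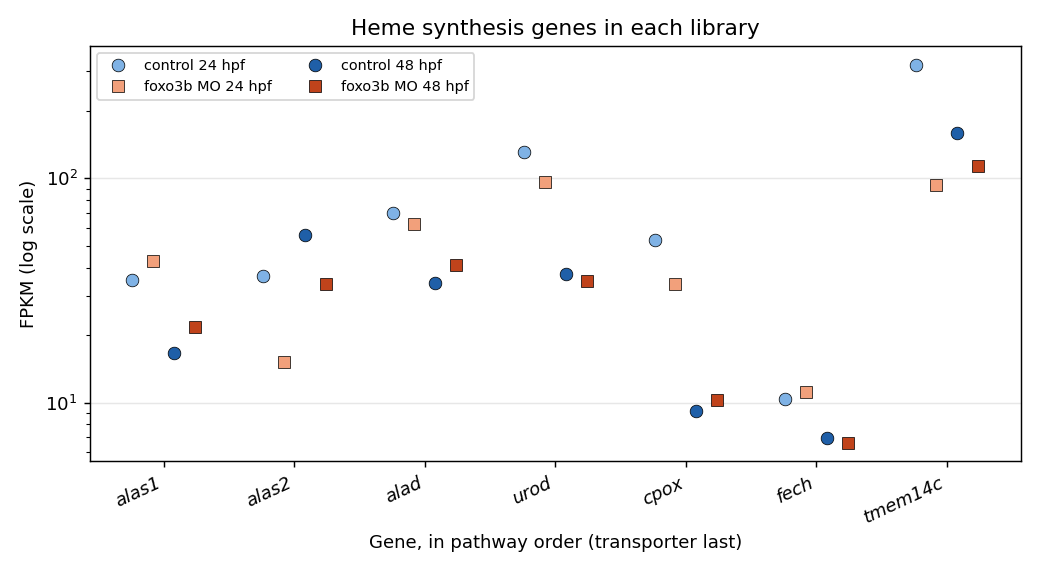
FPKM on a log axis of each heme synthesis gene, in pathway order with the transporter last, with 1 point for each of the 4 libraries (circles control, squares foxo3b MO, pale 24 hpf, dark 48 hpf). In control, alas2 was higher at 48 than at 24 hpf (56.0 against 36.8 FPKM), while the other 6 members were lower at 48 hpf.

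The ALAS genes, for the enzyme at the start of the pathway, differed in opposite directions. The red cell gene alas2 (chromosome 8 of the Zv9 assembly, 21891957 to 21907046) measured 36.8 FPKM in control and 15.2 FPKM in morphants at 24 hpf, then at 56.0 FPKM and 33.7 FPKM at 48 hpf. It was the lower one in the foxo3b MO library at both stages, and higher at 48 than at 24 hpf under both injections. The housekeeping gene alas1 (chromosome 11, 246449 to 255897) measured 35.3 FPKM in control and 42.8 FPKM in morphants at 24 hpf, then at 16.7 and 21.6 FPKM at 48 hpf. It was slightly higher in morphants at both stages and lower at 48 hpf. At 24 hpf its log2 fold of morphants against control was 0.27, near the median of 0.19 for all genes. At 48 hpf it was 0.36, beside -0.02 for all genes.

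Because library scaling cancels in a ratio of genes within a library, the ratio of alas2 to alas1 does not depend on how libraries are brought to one scale. That ratio was 1.04 in control and 0.355 in morphants at 24 hpf, and 3.35 and 1.56 at 48 hpf. In log2 terms it was lower in morphants by 1.55 at 24 hpf and by 1.11 at 48 hpf, given as changes of -1.55 and -1.11. From 24 to 48 hpf the same ratio was higher by 1.69 in control and by 2.13 in morphants. Control at 24 hpf thus held nearly equal levels of both ALAS genes, and the later libraries held more of the red cell form.

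The cytosolic steps begin with alad, whose enzyme condenses the product of ALAS. It lies on chromosome 5, 62950728 to 62964793, and measured 69.8 FPKM in control and 62.9 FPKM in morphants at 24 hpf, then at 34.2 and 40.9 FPKM at 48 hpf. Its levels under both injections were close at each stage, and both 48 hpf libraries were below both 24 hpf libraries.

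Later cytosolic steps close the ring and shorten its side chains. The gene uros, whose enzyme closes the ring, stood at 18.8 and 14.4 FPKM in control and morphants at 24 hpf, then 22.0 and 18.9 FPKM at 48 hpf. The decarboxylase gene urod (chromosome 2, 27704111 to 27723869) was the most abundant enzyme gene at 24 hpf, at 132 FPKM in control and 96.5 FPKM in morphants, and stood at 37.6 and 34.8 FPKM at 48 hpf. Both later libraries held less than 40 FPKM, whichever MO had been injected.

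Of the mitochondrial enzymes, cpox (chromosome 8, 19121103 to 19137938), which oxidises coproporphyrinogen, had the widest range over the libraries. It measured 53.1 FPKM in control and 33.9 FPKM in morphants at 24 hpf, then at 9.14 and 10.3 FPKM at 48 hpf. The gene ppox, for the following oxidation, stood between 6.49 and 8.50 FPKM in the 4 libraries. Ferrochelatase, which inserts iron, is encoded by fech (chromosome 21, 1970766 to 1993012), at 10.4 FPKM in control and 11.1 FPKM in morphants at 24 hpf, then at 6.97 and 6.63 FPKM at 48 hpf. The final enzymes ppox and fech were thus both weakly expressed, and their values under control and foxo3b MO lay close at each stage.

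The transporter gene tmem14c (chromosome 24, 8536094 to 8541430), now named tmem14ca, encodes an inner membrane protein that brings protoporphyrinogen into the mitochondrial matrix, as known from mouse and zebrafish. It measured 321 FPKM in control and 93.5 FPKM in morphants at 24 hpf, then at 159 and 114 FPKM at 48 hpf. Control at 24 hpf stood apart from the other 3 libraries. Its paralog tmem14cb, listed in the files under an older symbol, was weakly expressed and differed little with injection, at 9.22 and 9.01 FPKM at 24 hpf and 20.2 and 22.3 FPKM at 48 hpf. Within each library tmem14c stood 31.0 times above fech in control and 8.41 times in morphants at 24 hpf, and 22.9 and 17.2 times at 48 hpf.

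**Figure D2:**
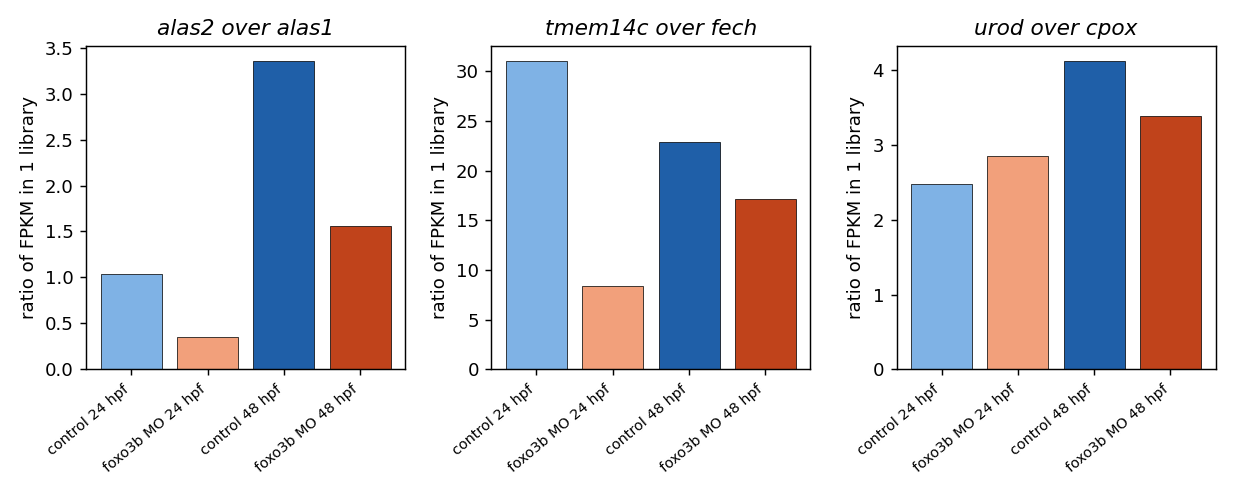
Ratio of FPKM of alas2 to alas1, tmem14c to fech and urod to cpox within each of the 4 libraries, as bars from 0. The first ratio was lower in foxo3b MO than in control at both stages (0.355 against 1.04, and 1.56 against 3.35), and the second mainly at 24 hpf (8.41 against 31.0).

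The comparison of foxo3b MO with control at 24 hpf asks how the pathway stood in Gata1+ cells of embryos injected against foxo3b. The transporter gene tmem14c, at 29.1% of its control level, and alas2, at 41.3%, were the 2 members at least 2-fold lower, and no member was 2-fold higher. Of all genes 1.94% were at least 2-fold lower and 3.12% at least 2-fold higher. On the scale of log2 fold with 1 FPKM added to each value, tmem14c was at -1.77 and ranked 43 from the lowest of 11971 genes, and alas2 was at -1.22 and ranked 138. A log2 fold below 0 was found for 5 of the 7 members, against 31.7% of all genes, and the members' median was -0.44 against 0.19 for all genes. The 8 red cell markers outside heme synthesis and globins had a median log2 fold of -0.26 in the same comparison, with 7 of 8 below 0 and 1 at least 2-fold lower, and of the globin genes 5 of 5 were at least 2-fold lower. Markers of other cells differed too: 6 of 6 measured liver and yolk markers were below 0 (median -0.50), and 2 of 5 muscle markers were at least 2-fold lower (median -0.44). Above 0 were 5 of 5 endothelial markers (median 0.58) and 4 of 4 epidermal markers (median 0.32), beside 8161 of 11971 genes in all. The part of these cells in the members' values was not tested.

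Between these lower members and 0 lay the middle of the pathway at 24 hpf. The log2 fold was -0.63 for cpox, -0.44 for urod and -0.15 for alad. The members above 0 were alas1 at 0.27 and fech at 0.09. The difference of tmem14c kept its direction and stayed past 2-fold on each of the 5 scales compared, between -2.00 and -1.23. The difference of alas2 kept its direction, but lay inside 2-fold on 3 of these scales: -0.97 with equal totals without ribosomal protein genes, -0.77 with scaling on 8 red cell genes and -0.71 with equal totals. On both scalings by equal totals and on that by red cell genes the median of all genes moved by 0.46, 0.23 (without ribosomal protein genes) and 0.41. The members' median came to 0.089 with equal totals and to 0.026 with red cell genes, beside 0.65 and 0.60 for all genes. In both cases 3 members, alas2, cpox and tmem14c, were below 0. With equal totals 8.47% of all genes, and with red cell genes 9.77%, were below 0.

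**Figure D3:**
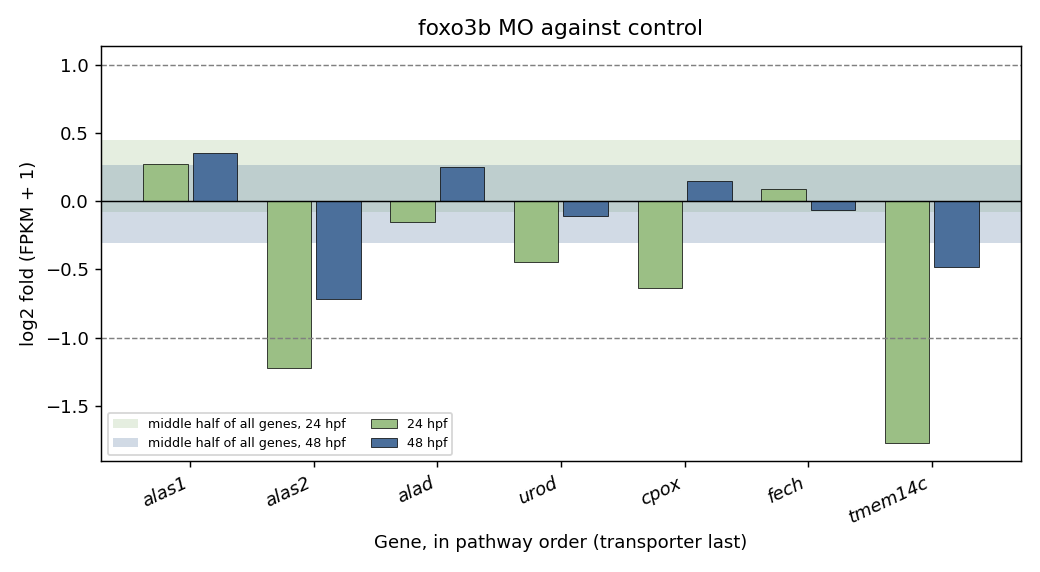
Log2 fold, from FPKM + 1, of foxo3b MO against control for each member at 24 hpf (green) and 48 hpf (blue). Dashed lines mark 2-fold and shaded bands the interquartile range of 11971 genes. At 24 hpf tmem14c (-1.77) and alas2 (-1.22) lie past the lower dashed line and at 48 hpf no member does.

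At 48 hpf the same comparison gave smaller differences for the genes that stood out at 24 hpf. No member was 2-fold lower and none 2-fold higher, against 3.67% and 1.92% of all genes. The lowest log2 folds were again those of alas2 at -0.71, or 60.2% of control, and tmem14c at -0.48, or 71.4% of control. The highest were those of alas1 at 0.36, or 130% of control, and alad at 0.25, or 120% of control. Between these lay urod at -0.11, fech at -0.06 and cpox at 0.15. Of the 7 members 4 were below 0, against 51.6% of all genes, and the median was -0.06 against -0.02 for all genes. The 8 red cell markers outside heme synthesis and globins had a median of -0.03 and lay between -0.82 and 0.61, with 4 of 8 below 0. Of the globin genes 4 of 5 were at least 2-fold lower (median -1.63). Below 0 were 6 of 6 liver and yolk markers (median -0.64). At least 2-fold higher in morphants at this stage were 3 of 3 hatching gland markers. The part of these cells in the members' values was not tested.

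The scale matters for these values. Equal totals moved the median of all genes by 0.61, turned tmem14c to 0.19, urod to 0.55 and fech to 0.53, and left alas2 at -0.06. Equal totals without ribosomal protein genes put tmem14c at 0.12, urod at 0.48, fech at 0.46 and alas2 at -0.12. Scaling by median ratios or by red cell genes moved the median of all genes by 0.02, and alas2 stood at -0.69 on both. Of all members only alas2 was below 0 at both stages on each of these scales. Of all genes 11.5% were below 0 at 48 hpf with equal totals and 13.5% with equal totals without ribosomal protein genes. With median ratios the share was 49.9%, and with red cell genes 49.8%. The share of all genes below 0 at both stages on each scale was not computed.

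**Figure D4:**
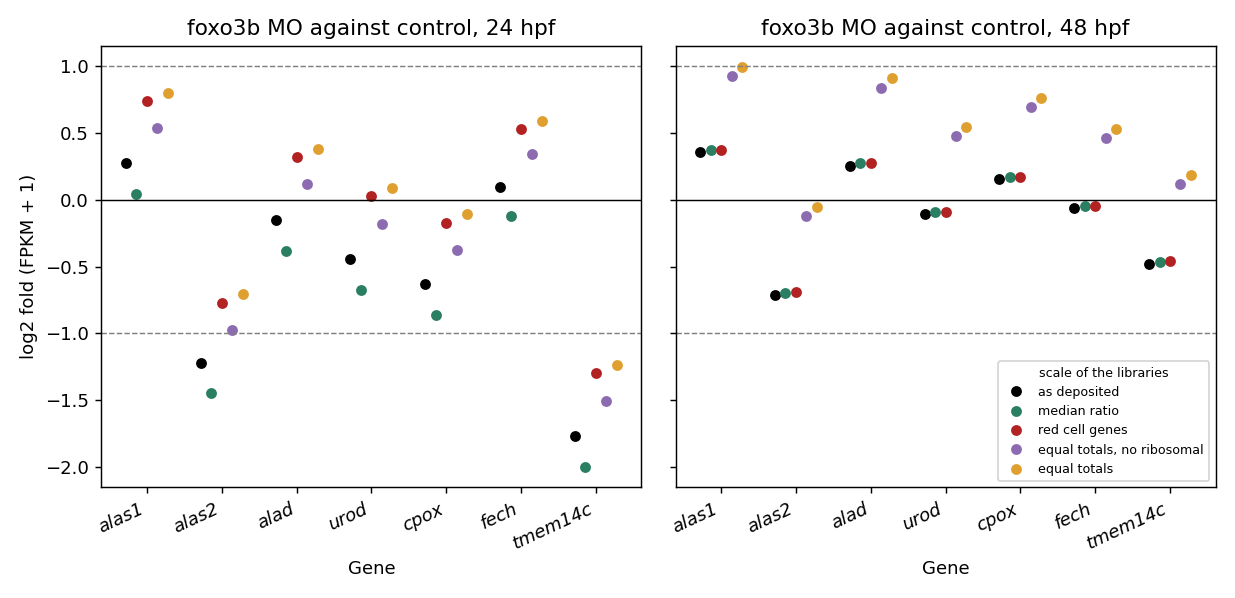
Log2 fold of foxo3b MO against control for each member at 24 hpf (left) and 48 hpf (right) on 5 scales of the libraries, with dashed lines at 2-fold. The scale shifts the 7 members together, and alas2 is the lowest or next to lowest member on each scale at both stages.

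The comparison of 48 with 24 hpf sets the sampling times side by side. In control 5 of the 7 members were at least 2-fold lower at 48 hpf and none was 2-fold higher, against 8.75% and 21% of all genes. The lowest were cpox, at 17.2% of its 24 hpf level with a log2 fold of -2.42, and urod, at 28.6% with -1.78. They were followed by alas1 at -1.04, and alad and tmem14c, both at -1.01, so that these 3 lay just past the threshold of -1. Inside it lay fech at -0.51. The only member above 0 was alas2 at 0.59, or 152% of its 24 hpf level. In all, 6 of 7 members were below 0, against 41.2% of all genes, and the median was -1.01 against 0.18 for all genes. In the same comparison 3 of 8 red cell markers were at least 2-fold higher and 1 was 2-fold lower. Their median was 0.07 and they lay between -1.40 and 3.02. At least 2-fold higher were also 4 of 5 globin genes, with the other 1 2-fold lower, 4 of 5 muscle markers and 3 of 8 myeloid markers. All 3 of 3 hatching gland markers were 2-fold lower. The part of these cells in the members' values was not tested. A pseudocount of 5 FPKM left 2 members 2-fold lower, namely urod and cpox.

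In foxo3b MO 2 members were at least 2-fold lower at 48 hpf, cpox at -1.63 and urod at -1.45, and alas2 was 2-fold higher at 1.1. Among all genes 11.5% were 2-fold lower and 15.7% 2-fold higher. The other members below 0 were alas1 at -0.95, fech at -0.67 and alad at -0.61, while tmem14c at 0.28 was above 0. This made 5 of 7 members below 0, against 51.1% of all genes, with a median of -0.67 against -0.03. Scaling on red cell genes, which moved the median of all genes by -0.53, put 5 members past 2-fold lower and none past 2-fold higher, with alas2 at 0.54, and on that scale 30.1% of all genes were 2-fold lower and 9.07% higher. On the deposited scale 3 of 8 red cell markers were at least 2-fold higher and none was 2-fold lower, with a median of 0.48. At least 2-fold higher were also 4 of 5 globin genes, 4 of 5 muscle markers and 5 of 8 myeloid markers. Of 5 endothelial markers 3 were 2-fold lower and 1 was higher (median -1.21), and 1 of 3 hatching gland markers was 2-fold lower. The part of these cells in the members' values was not tested.

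**Figure D5:**
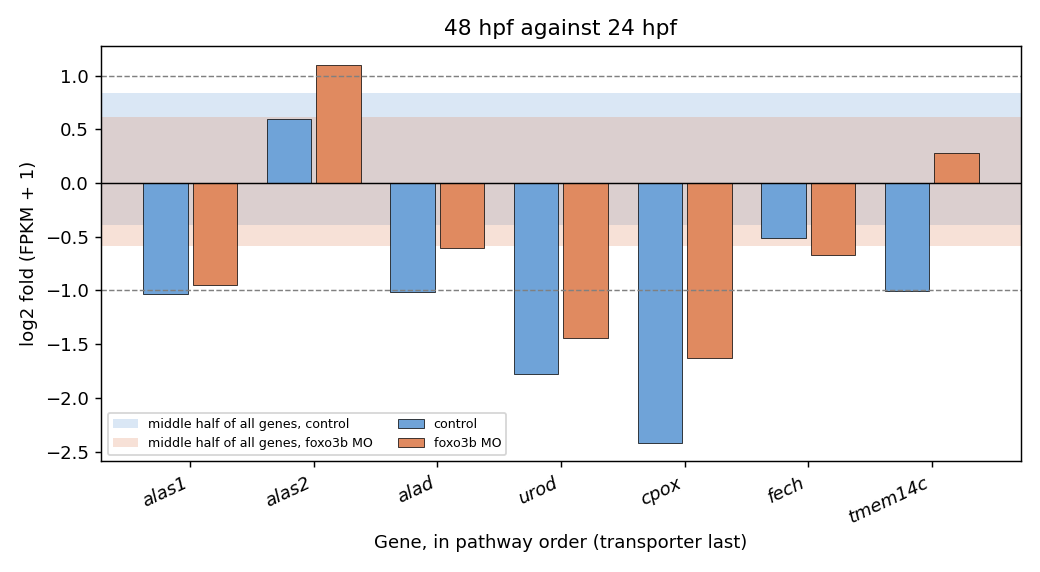
Log2 fold, from FPKM + 1, of 48 against 24 hpf for each member in control (blue) and in foxo3b MO (orange). Dashed lines mark 2-fold and shaded bands the interquartile range of 11971 genes. In both series cpox and urod are the lowest members (-2.42 and -1.78 in control, -1.63 and -1.45 in foxo3b MO), and alas2 is the highest (0.59 and 1.1).

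The comparisons above share libraries, so their agreement is not separate evidence. The difference between the foxo3b MO log2 folds at 48 and 24 hpf was at least 1 for 1 member, tmem14c at 1.29, and 2.95% of all genes reached 1 in this direction. In the other direction no member reached -1, while 1074 of 11971 genes did. The difference was positive for 6 of 7 members, against 35.5% of all genes, and negative for fech at -0.16. The values were 0.79 for cpox, 0.51 for alas2, 0.40 for alad, 0.33 for urod and 0.08 for alas1. Median-ratio scaling put 2 members, tmem14c and cpox, at 1 or more, and scaling on red cell genes none, with tmem14c at 0.84. On the latter scale alas1 (-0.36), urod (-0.12) and alad (-0.05) turned negative. Shares of all genes for this difference were not computed on either scale.

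Set against red cell genes within the same library, alas2 and tmem14c did not keep the same ratio to every marker. The level of gata1a itself was 8.23 FPKM for control and 6.30 FPKM for morphants at 24 hpf, with 2.49 and 4.33 FPKM at 48 hpf. The ratio of alas2 to gata1a, the gene whose promoter drives the reporter, was 4.47 in control and 2.41 in morphants at 24 hpf, and 22.5 and 7.78 at 48 hpf. Against the spectrin gene sptb, a part of the red cell skeleton, alas2 stood at 1.91 and 0.905 at 24 hpf, then at 2.48 and 1.56 at 48 hpf. Against the anion exchanger gene slc4a1a it stood at 1.53 and 1.57 at 24 hpf, then at 0.886 and 0.531 at 48 hpf. Over all 8 red cell markers the ratio of alas2 was lower in morphants for 7 at 24 hpf, the other being slc4a1a. At 48 hpf it was lower for 7, the other being rhag (0.404 in control and 0.433 in morphants). The gene rhag encodes an Rh family protein of the red cell membrane. By log2 fold alas2 ranked 138 from the lowest of 11971 genes at 24 hpf and 941 at 48 hpf. Its ratio to most genes of any kind was thus lower in morphants.

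The ratio of tmem14c was lower in morphants for 8 of 8 red cell markers at 24 hpf and for 6 of 8 at 48 hpf. At 48 hpf it was higher against rhag, at 1.15 in control and 1.46 in morphants, and against the transcription factor gene nfe2, at 53.3 and 55.6. By log2 fold tmem14c ranked 43 from the lowest of 11971 genes at 24 hpf and 1814 at 48 hpf, so its ratio to most genes of any kind was lower too. Its ratio to gata1a was 39.0 in control and 14.8 in morphants at 24 hpf, and 64.0 and 26.3 at 48 hpf. Its ratio to sptb was 16.7 and 5.57 at 24 hpf, and 7.07 and 5.27 at 48 hpf, and that to slc4a1a was 13.3 and 9.68, and 2.52 and 1.79. Embryonic globin genes stood lower in morphants for 5 of 5 genes at 24 hpf, with a median log2 fold of -1.97. At 48 hpf 5 of 5 were below 0, with a median of -1.63, but the highest was at -0.08 and 4 were at least 2-fold lower. Of all genes 31.7% at 24 hpf and 51.6% at 48 hpf were below 0. Relative to the sum of the globin genes each of the 7 members was higher in morphants at both stages. That sum was 15302 FPKM in control and 3644 FPKM in morphants at 24 hpf, and 25717 and 9713 FPKM at 48 hpf. It was thus more than 2-fold lower in morphants at both stages. Of all genes 1.94% at 24 hpf and 3.67% at 48 hpf were at least 2-fold lower. Relative to this sum most genes of any kind were therefore higher in morphants. Among the members, the log2 changes of this ratio at 24 and 48 hpf were smallest for alas2 (0.79 and 0.67) and tmem14c (0.29 and 0.92). They were largest for alas1 (2.35 and 1.78). The level of tmem14c was 2.10% of the sum of the 5 globin genes in control and 2.57% in morphants at 24 hpf, and 0.620% and 1.17% at 48 hpf. That of alas2 amounted to 0.240% of the sum in control and 0.417% in morphants at 24 hpf, and to 0.218% and 0.347% at 48 hpf. Of these globin rows, hbae1 and hbbe1.1 share a locus with other genes in the files, which makes each of these values uncertain.

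The rest of the pathway was described with lists of other genes. Of 10 further genes linked to heme synthesis, 7 were found in the files and measured, and none was past 2-fold in any of the 4 comparisons. Of all genes 1.94% were 2-fold lower in morphants and 3.12% higher at 24 hpf, and 3.67% and 1.92% at 48 hpf. From 24 to 48 hpf 8.75% were lower and 21% higher in control, and 11.5% and 15.7% in foxo3b MO. The list's log2 folds of morphants against control lay between -0.61 and 0.56 at 24 hpf and between -0.35 and 0.27 at 48 hpf. The value of 0.27 is that of pgrmc1, which shares a locus with other genes and is therefore uncertain. The list's median log2 fold of foxo3b MO against control was -0.04 at 24 hpf and -0.13 at 48 hpf, beside 0.19 and -0.02 for all genes. Within this list uros was at -0.36 and -0.21 and ppox at 0.01 and -0.10. From 24 to 48 hpf the list had a median of 0.28 in control and 0.23 in morphants. The 7 members had -1.01 and -0.67, and all genes 0.18 and -0.03.

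Genes for heme breakdown, heme transport and heme sensing were measured for 12 of 17 listed. At 24 hpf 1 was 2-fold higher in morphants and none lower, with a median of 0.24, beside 3.12% and 1.94% of all genes. At 48 hpf 2 were 2-fold lower and none higher, with a median of -0.09, beside 3.67% and 1.92% of all genes. The heme exporter gene flvcr1 was weakly expressed, at 1.51 FPKM in control and 4.12 FPKM in morphants at 24 hpf, then at 3.67 and 0.867 FPKM at 48 hpf. It was the gene 2-fold higher at 24 hpf (log2 fold 1.03) and 1 of those lower at 48 hpf (-1.32). The other was hmox2a, a heme oxygenase gene listed under an older symbol, at 29.99 FPKM in control and 11.8 FPKM in morphants at 48 hpf (-1.28), after 22.7 and 16.4 FPKM at 24 hpf. The inducible heme oxygenase gene hmox1a, listed as hmox1, stood at 77.4 and 70.7 FPKM at 24 hpf, then 81.1 and 130 FPKM at 48 hpf. From 24 to 48 hpf 3 genes of this list were 2-fold higher in each of control and foxo3b MO, and 0 and 1 were 2-fold lower. Of all genes 21% and 15.7% were 2-fold higher and 8.75% and 11.5% lower. Among the higher genes, abcg2a (2.19 in control and 2.27 in foxo3b MO) shares a locus with other genes, which makes its values uncertain.

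Genes that supply glycine, iron and iron-sulfur clusters were measured for 18 of 23 listed. At 24 hpf 1 was 2-fold higher in morphants and none lower, with a median of 0.16, beside the same shares of all genes, and at 48 hpf none passed 2-fold, with a median of -0.02. The gene past 2-fold was slc6a9, which encodes a glycine transporter of the plasma membrane, at 10.6 FPKM in control and 27.1 FPKM in morphants at 24 hpf (1.28), then 33.2 and 57.7 FPKM at 48 hpf (0.78). The mitochondrial glycine carrier gene slc25a38a was weakly expressed, at 3.45 and 2.23 FPKM at 24 hpf and 0.647 and 0.661 FPKM at 48 hpf. Its paralog slc25a38b was higher in each library, at 4.83 and 8.53 FPKM at 24 hpf and 6.80 and 4.36 FPKM at 48 hpf. The mitoferrin that is defective in the zebrafish mutant frascati, which brings iron into mitochondria, is encoded by slc25a37. This gene stood at 1.96 and 2.81 FPKM at 24 hpf and 3.44 and 6.15 FPKM at 48 hpf. Its paralog slc25a28 was higher in each library, at 11.3 and 16.7 FPKM at 24 hpf and 15.9 and 19.8 FPKM at 48 hpf. The iron-sulfur cluster gene glrx5, defective in the zebrafish mutant shiraz, stood at 152 and 166 FPKM at 24 hpf, then 70.9 and 62.7 FPKM at 48 hpf. From 24 to 48 hpf 2 genes of the list were 2-fold higher and 3 lower in control, and 2 higher and 2 lower in morphants, beside the same shares of all genes.

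Profiles over the 4 libraries were also set beside those of 5781 other genes, by the root mean square difference of centred log2 values. These genes had a mean of at least 10 FPKM, values above 0 in all 4 libraries and a symbol that was not a clone or database name. The members not reported here were left out as well. Genes left out were not compared and could lie nearer. Among the genes compared, the closest to alas2 were ambpl (0.075), acaa1 (0.080), taf13 (0.15) and mif (0.15). Closest to tmem14c were ndufa5, a gene for a subunit of respiratory complex I (0.12), rpl28, for a ribosomal protein (0.13), faua (0.17) and rbp4l (0.20). The first of these, ndufa5, stood at 1434 and 491 FPKM in control and morphants at 24 hpf, then at 881 and 528 FPKM at 48 hpf. Among the members, alad and fech, and alas1 and alad, had the closest profiles, with a difference of 0.18 for each pair. With 4 libraries, many genes can lie near any profile.

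The locus of tmem14c is the shortest of the members, at 5337 bases, and genes of like locus width and level were lower in morphants at 24 hpf as well. The 351 genes in its bin, with loci of 3379 to 5796 bases and means of at least 45.4 FPKM, had a median log2 fold of -0.19, and 11.1% were 2-fold lower. In the bin of alas2, with 275 genes, the median was 0.26 and 0.727% were 2-fold lower. After subtraction of these medians tmem14c was at -1.57 and alas2 at -1.48 at 24 hpf, and at -0.46 and -0.71 at 48 hpf.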

How the data were processed

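RNA of 4 libraries, 1 per group, was described from the FPKM values deposited by the authors. Per the submitters' processing notes, TopHat and Cufflinks were used on the Zv9 assembly. Their versions and options, and the gene annotation, were not given in the sources used here. Loci are Zv9 spans from the files. Names were matched to current symbols in a RefSeq zebrafish gene table for the 7 members reported. Another 2 members are not reported here.

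Log2 folds were log2 of the ratio of FPKM + 1, over 11971 genes whose mean reached 1 FPKM, and genes were counted at 2-fold. The pseudocount understates differences of weakly expressed genes. Without replicates no test was run and no counting interval can be given. Members and lists were chosen with earlier results of these data known. Besides the members, text names uros, ppox, hmox1a, slc25a37, slc25a38a, glrx5, list genes past 2-fold in a foxo3b MO comparison and 3 red cell genes. Also named are the 4 genes closest to alas2 and to tmem14c among the genes compared. The genes foxo3b, foxo3a, tmem14cb, slc25a38b, slc25a28, rhag, nfe2, abcg2a, pgrmc1, fabp1b.1, globin rows that share a locus and markers listed at 0 were added after values were seen.

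Also tried were a pseudocount of 0.1 or 5 FPKM, a floor of 5 FPKM or none, and scaling by median ratios, by equal totals with and without 73 ribosomal protein genes, and by 8 red cell genes. Centring on genes of like locus width (10 bins) and level (5 bins) was added after the data were seen. Low values below 0.3 FPKM were searched for whole-read steps within 0.03 log2. On simulated data only 2-fold counting after median-ratio scaling and the search for whole-read steps were tried. For that search the found step nearest the simulated depth was taken, so it does not show that depth can be found unaided. The other scalings and the centring were not tried on simulated data. Python 3.11.15, numpy 2.4.6, pandas 2.3.3 and matplotlib 3.10.9 were used.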

Additional observations from a re-analysis of the deposited data

Results flagged for a closer look

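For 3 of the 7 members the foxo3b MO log2 fold had opposite signs at 24 and 48 hpf, as it did for 46.7% of all genes. The difference between stages, 48 hpf minus 24 hpf, was 0.40 for alad, 0.79 for cpox and -0.16 for fech. With 1 library per group these differences were not tested.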

How the results depend on the processing

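No paired analysis was possible because each group has 1 library, and for the same reason no library could be left out. Recomputing the counts of members under 9 alternatives gave 81 values, of which 12 moved by over 1.5 times, or to or from 0. With a pseudocount of 5 FPKM, 2 members (5.37% of all genes) were 2-fold lower at 48 hpf in control and 0 (8.39%) were 2-fold higher at 48 hpf in foxo3b MO. Median-ratio scaling, equal totals without ribosomal protein genes and centring each gave 2 members that differed by at least 1 between stages, and scaling on red cell genes gave 0. Shares of all genes for these differences between stages were not computed under the alternatives. At 24 hpf 1 member, tmem14c, was 2-fold lower in foxo3b MO with equal totals (0.693% of all genes), with equal totals without ribosomal protein genes (1.16%) and with scaling on red cell genes (0.777%). From 24 to 48 hpf in foxo3b MO, red cell scaling gave 5 members 2-fold lower (30.1% of all genes) and 0 higher (9.07%), and equal totals without ribosomal protein genes gave 0 higher (14.0%). The members' median at 24 hpf turned to 0.089 with equal totals and to 0.026 with red cell scaling, beside 0.651 and 0.602 for all genes. The members' median at 48 hpf turned to 0.546 with equal totals, to 0.477 without ribosomal protein genes and to 0.035 with centring. The medians of all genes on these scales were 0.596, 0.527 and 0. The cause was not tested. No member past 2-fold turned direction under any of the 9 alternatives. Members near 7 to 10 FPKM, such as fech, rest on fewer reads than tmem14c, and the files do not give how many.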
